A study of Mus musculus with 141 samples.

Results

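Livers of male Collaborative Cross mice with high transcript levels of Cyp2b10 were compared with livers with low levels. RNA-seq had been run on liver, lung and kidney of 1 male mouse from each of 47 Collaborative Cross strains, which are recombinant inbred lines derived from 8 founder strains, giving 141 libraries. The groups were chosen by a measured value. Each of the 47 livers was given a score, log2(CPM + 1) of Cyp2b10, where CPM is the count scaled to 1000000 counts of the library without Rn45s, the ribosomal RNA precursor. The 16 livers with the highest score formed the high group and the 16 with the lowest formed the low group, so 32 of the 47 livers entered the comparison and 15 lay between. The groups did not differ in treatment. All mice were 8 to 12 weeks old and were fed the NTP 2000 wafer diet under a light-dark cycle of 12 h each. All spent 6 h a day on weekdays over 2 weeks in chambers with clear air, and all received nembutal, a barbiturate anaesthetic, at 100 mg/kg before death. No genotype, allele or compound was assigned to either group, and each liver is a different strain, so strain background and the individual mouse cannot be told apart.

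Cyp2b10 encodes a cytochrome P450, whose transcript in these mice was higher in every lung than in any liver. In liver it is the classical target gene of the constitutive androstane receptor (CAR, gene symbol Nr1i3). CAR is a nuclear receptor that senses drugs and other foreign compounds. Activated CAR moves from the cytoplasm to the nucleus, pairs with the retinoid X receptor and binds response elements upstream of genes for drug oxidation (phase I), conjugation (phase II) and export. Cyp2b10 transcript was used here as a stand-in for CAR activity, and since it defined the groups it was left out of every test.

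The response element by which Cyp2b10 is known is shown because it is the link between the gene that chose the groups and the receptor. In the 3000 bases upstream of each of 18794 protein-coding genes of the reference genome (NCBIM37, GENCODE vM1), the motif AGGTCANNNNAGNNCA, a pair of half-sites in the same orientation with 4 bases between them, was searched on both strands and was found in 319 windows (1.70%). In Cyp2b10 (chr7:26682639-26711643, plus strand) it lay 2283 bases upstream of the gene start, at chr7:26680341-26680356. The stretch chr7:26680301-26680396 is printed 5′ to 3′ on the plus strand, with the motif, which reads on the minus strand, in capitals.
Cyp2b10 upstream: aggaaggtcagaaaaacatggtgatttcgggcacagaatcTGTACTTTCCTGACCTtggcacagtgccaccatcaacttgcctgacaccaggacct
Of the 65 CAR-responsive genes listed for this comparison that had a window, 2 held the motif, Cyp2b23 and Cyp1a2, and 163 of the 8942 windows of genes tested in liver did (1.82%). This is reference sequence and not that of the strains, and the absence of these letters from a window says nothing about binding by the receptor.

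Cyp2b10 ranged from 9.40 to 101 CPM in the high livers, with a median of 26.8 CPM, and from 0 to 3.24 CPM in the low livers, with a median of 1.41 CPM. These values chose the groups and are given as a description. The highest levels were in CC037, CC061 and CC015. The last liver inside the high group was CC019 at 9.40 CPM and the first outside it CC053 at 8.35 CPM, while CC016 at 3.24 CPM was the last inside the low group and CC024 at 3.26 CPM the first outside it. The score changed little at either border, from 3.38 to 3.22 and from 2.09 to 2.08, so neither border lies at a gap. Inside the high group it fell from 4.18 in CC025 to 3.44 in CC003, nearer to the middle livers. The low levels rest on few reads: the low livers had 0 to 35 counts of the gene (median 7), and CC033 and CC035 had 0, which in a library allows up to 3 counts. In the lungs of the 47 mice Cyp2b10 was at 205 to 843 CPM, and in kidney its median was 1.92 CPM.

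**Figure D1:**
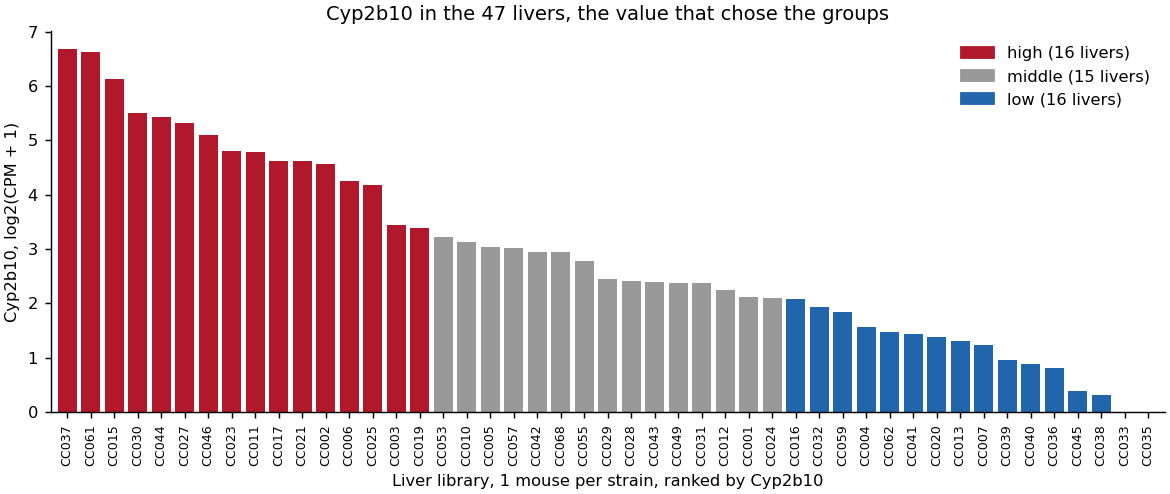
Bars show the Cyp2b10 score, log2(CPM + 1), of the 47 liver libraries in rank order, coloured by group. The 16 high livers, from 9.40 CPM upwards, and the 16 low livers, up to 3.24 CPM, are the ends of the ranking with 15 livers between.

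The liver libraries held between 1738046 and 42158454 counts, of which Rn45s took 0.321% to 69.0%. Total counts, Rn45s included, averaged 10354628 ± 5074134 (SD, n = 16) in the high livers and 9311494 ± 5312979 (n = 16) in the low ones (two-sided permutation test, adjusted p = 0.575). Without Rn45s, as used for CPM and the tests of genes, totals averaged 7.12e+06 ± 3.11e+06 in the high and 5.37e+06 ± 2.91e+06 in the low livers. This difference in usable depth was not tested. High livers had 13815 ± 677 genes detected against 13131 ± 1224 (adjusted p = 0.167 over the 3 measures), and Rn45s took 27.8% ± 16.4 of their counts against 37.95% ± 18.6 (adjusted p = 0.167). The hepatocyte markers summed to a median of 143780 CPM in the high and 140890 CPM in the low livers, in keeping with the tissue label. Genes of other tissues stood apart in some low livers. The summed kidney markers reached 650 CPM in CC035, 538 CPM in CC033 and 262 CPM in CC036, against medians of 17.3 CPM (high) and 40.8 CPM (low), and the lung markers reached 180 CPM in CC033. CC016, a low liver, had the highest sums of T and NK cell markers (73.5 CPM), Kupffer cell markers (1567 CPM) and interferon-response genes (4629 CPM). These livers were kept in the comparison, and counts are given also without them.

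No gene passed the threshold in liver. Of 10249 genes tested by limma-voom, 0 (0%) had a Benjamini-Hochberg adjusted p (q) of 0.1 or less between the 16 high and the 16 low livers. At an unadjusted p under 0.05 there were 595 genes, 260 higher (2.54%) and 335 lower (3.27%) in the high livers, and 50.8% of all genes had a log2 fold change above 0. On the same counts edgeR's quasi-likelihood test called 4 genes and DESeq2 called 32, 10 higher and 22 lower. Those 22 included Kap and Slc34a1, the only 2 of the 6 listed kidney markers that were tested. The 32 calls also held Slc22a12, Slc6a19, Slc5a8, Slc7a13, Cubn and Egf, which were on no marker list. How many of the 32 are genes of other organs, and the part of RNA from other organs in these calls, was not tested. The absolute log2 fold change was at most 0.57 for 95% of the genes, with a median of 0.11. The genes described from here on, apart from the CAR regulators, the Cyp2b paralogs and the marker genes, were chosen after their values were seen, since no gene could be named by a call, and none of them passed the threshold by limma-voom in the comparison of the 16 high with the 16 low livers.

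The smallest q was that of Cyp2c29, a cytochrome P450 that oxidizes arachidonic acid and other substrates and is known to respond to CAR activators. Cyp2c29 (chr19:39315441-39405189, NCBIM37, GENCODE vM1) ranged from 1536 to 4801 CPM (median 2354.5) in the high livers and from 670 to 2155 CPM (median 1440) in the low livers. All 16 high livers lay above the low median and 11 lay above every low liver, so the groups overlapped only in part. The log2 fold change was 0.81 (SE 0.16, p = 1.3e-05, q = 0.134). Its q was 0.053 by edgeR and 0.0011 by DESeq2, and over all 18 alternatives for the liver comparison it ran from 0.0011 to 0.827, with a log2 fold change above 0 in each. Of its 50-base transcript windows, 99.5% matched no other protein-coding gene. As a slope on the score over all 47 livers, which include the 32 that were compared, Cyp2c29 had 0.20 log2 units per unit of score (SE 0.03, q = 0.0041) and was 1 of 2 genes called among 10150 (0.0197%).

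Within the 15 middle livers, which the comparison did not use, the slope of Cyp2c29 was 0.01 (SE 0.25, p = 0.96). The middle livers spanned a score of only 2.09 to 3.22, and the standard error there was larger than the slope over all livers. Of 10144 genes tested along the score in the middle livers 0 (0%) were called, 575 had an unadjusted p under 0.05, and edgeR called 0. In the middle livers Cyp2c29 ranged from 974 to 2711 CPM, with a median of 1932 CPM that lay between those of the high and low groups.

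Sms, the spermine synthase of polyamine metabolism, had the next smallest q (0.220). It was at 5.77 to 10.4 CPM (median 7.33) in the high and at 2.99 to 7.24 CPM (median 4.84) in the low livers, a log2 fold change of 0.57 (SE 0.12). All 16 high livers lay above the low median, and 9 lay above every low liver. In the middle livers its slope was -0.38 (p = 0.15).

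**Figure D2:**
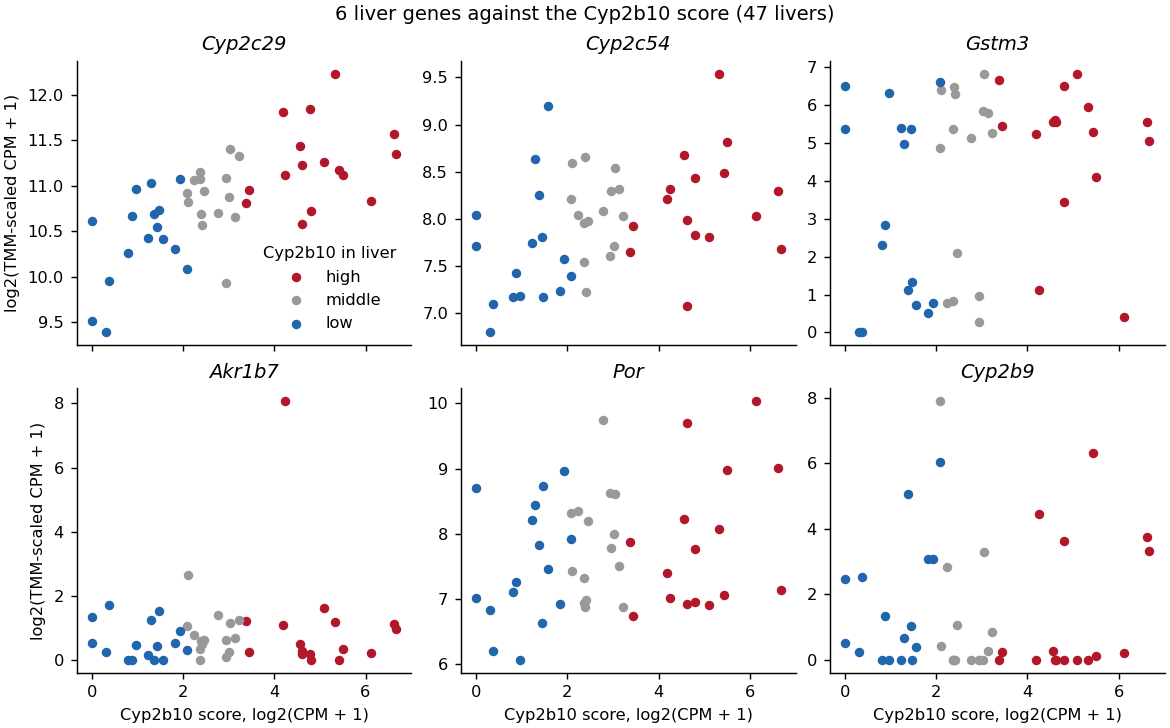
Each panel plots log2(TMM-scaled CPM + 1) of a gene against the Cyp2b10 score, log2(CPM + 1), for 47 livers coloured by group. Cyp2c29 is lowest among livers with low scores, Gstm3 spans a wide range in every group, and Akr1b7 stands out in a single high liver, CC006.

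Among the CAR-responsive genes, 56 of the 67 listed passed the filter on low counts. Of these, 38 had a log2 fold change above 0 with a median of 0.24, against 50.8% and a median of 0.00 over all genes. An unadjusted p under 0.05 was reached by 5 members in the direction higher in high livers and by 0 in the other, beside 2.54% and 3.27% of all genes, and 0 were called. By edgeR the median was 0.12, with 5 higher and 1 lower at an unadjusted p under 0.05, and by DESeq2 it was 0.08, with 4 higher and 2 lower. Between the 23 highest and 23 lowest livers it was 0.08, and as a slope 0.05 per unit of score. It was 0.43 on total counts without TMM. On total counts without TMM the median of all genes itself moved to 0.23.

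Of the phase I genes, which oxidize or hydrolyse drugs, 18 of 25 tested lay above 0 (median 0.25) and 4 reached an unadjusted p under 0.05: Cyp2c29, Cyp2c54, Fmo5 and Ces2a. Cyp2c54, another P450 of the Cyp2c cluster, was at 133 to 742 CPM (median 279) in the high and at 110 to 586 CPM (median 180) in the low livers (log2 fold change 0.51, SE 0.21, q = 0.861). The ranges overlapped almost wholly, and only CC027 lay above every low liver. Of its transcript windows 75% matched no other gene, the rest being shared with Cyp2c37 and Cyp2c50, so its counts and those of Cyp2c37 are uncertain.

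Fmo5, a flavin-containing monooxygenase, was at 2.02 to 10.7 CPM (median 5.26) against 0.647 to 8.98 CPM (median 2.25), a log2 fold change of 0.62 (SE 0.28). Ces2a, a carboxylesterase, was at 16.2 to 48.8 CPM (median 29.2) against 3.65 to 42.8 CPM (median 21.7), a log2 fold change of 0.47 (SE 0.21) that was 0.30 by edgeR and 0.29 by DESeq2. In both, most high livers lay above the low median, 15 for Fmo5 and 14 for Ces2a, and the ranges overlapped. Cyp2c37 (log2 fold change 0.82, SE 0.45) and Cyp2c55 (0.83, SE 0.63), further P450s known as CAR targets, had values of similar size with larger errors. Cyp3a11, the main drug-metabolizing Cyp3a of mouse liver, was at 220 to 3190 CPM in the high and 336 to 2113 CPM in the low livers, with a log2 fold change of 0.27 (SE 0.30) that was -0.01 between the 23 highest and the 23 lowest livers.

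Akr1b7, an aldo-keto reductase that CAR activators are known to induce, was near 0 in nearly all livers. Its median was 0.333 CPM in the high and 0.363 CPM in the low livers, and a single high liver, CC006, was at 267 CPM. The log2 fold change was 0.60 (SE 0.77), 4.83 by edgeR and 0.023 by DESeq2, and the mean of the high livers, 17.3 CPM, rests on that liver.

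Of the phase II genes, which conjugate, 13 of 20 tested lay above 0 (median 0.13), and Gstm3, a glutathione S-transferase, alone reached an unadjusted p under 0.05. Gstm3 was at 0.331 to 110 CPM (median 43.8) in the high and at 0 to 96.0 CPM (median 5.04) in the low livers, a log2 fold change of 2.60 (SE 0.99, q = 0.861). On the same counts edgeR gave 0.72 and DESeq2 0.69. Livers fell into a set with less than 10 CPM and a set with more than 16 CPM. The low set held 3 of the 16 high, 5 of the 15 middle and 9 of the 16 low livers, and CC015, the third in the Cyp2b10 ranking, was in it. Its reads can be shared with Gstm1 and Gstm6, since 82.7% of its transcript windows matched no other gene. Of 11 transport and growth genes tested, 7 lay above 0 (median 0.31) and 0 had an unadjusted p under 0.05. Abcc3, a conjugate exporter, had a log2 fold change of 0.48 (SE 0.30), with 59.2 to 527 CPM in the high and 36.3 to 319 CPM in the low livers.

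The other Cyp2b genes were near 0 in most livers. Cyp2b9, a paralog that is higher in female than in male liver, was at 0 to 78.3 CPM (median 0.126) in the high and at 0 to 64.2 CPM (median 0.818) in the low livers (log2 fold change -1.78, SE 1.15, q = 0.865). By edgeR the log2 fold change was -0.034, by DESeq2 -0.16, on log2(TPM + 1) -0.062 and between 12 and 12 livers -0.58. The highest liver of all was CC024, a middle liver, at 235 CPM. Cyp2b13 reached at most 0.456 CPM in the high and 2.28 CPM in the low livers, and Cyp2b23 at most 0.0867 CPM in any of these livers, so both were below the filter. Cyp2b9 and Cyp2b10 share transcript windows (89.2% and 92.1% matched no other gene), and reads were counted only where they aligned uniquely.

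None of the regulators passed the threshold. Nr1i3, which encodes CAR, was counted at 0 to 2.80 CPM in the high and at 0 to 1.97 CPM in the low livers, with at most 3 counts in 11 low livers (log2 fold change 0.51, SE 0.42, q = 0.896). The gene is listed with 3 transcripts, and since reads were counted only where they aligned uniquely, its level is uncertain. Nr1i2, the pregnane X receptor, a related drug sensor, was at 1.48 to 9.70 CPM (median 3.27) against 0.683 to 4.55 CPM (median 2.67), a log2 fold change of 0.54 (SE 0.23, unadjusted p = 0.025, q = 0.861). Rxra, the partner of both, was at 0.517 to 3.51 CPM against 1.04 to 5.99 CPM (log2 fold change -0.27, SE 0.21). Rxra has 5 protein-coding transcripts in GENCODE vM1, so its level is uncertain in the same way as that of Nr1i3. This limit may hold for any other gene with several transcripts, and its size was not tested. Of 20 tested partners and signalling genes 13 lay above 0, with a median of 0.03. Those with an unadjusted p under 0.05 were Nr1i2, Nr0b2, a corepressor of nuclear receptors (0.65, SE 0.27), and Egfr, the growth factor receptor whose signal is known to hold CAR in the cytoplasm (0.33, SE 0.16).

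Por, which passes electrons to all microsomal P450s, was at 106 to 1046 CPM (median 193) in the high and at 66.2 to 496 CPM (median 164) in the low livers (log2 fold change 0.36, SE 0.33, q = 0.906). The highest levels were in CC015, CC055 and CC021, of which CC055 is a middle liver. Alas1, the first enzyme of haem synthesis, was at 0.608 to 29.9 CPM against 3.40 to 33.2 CPM (log2 fold change -0.40, SE 0.42, q = 0.919, and -0.13 by both edgeR and DESeq2). The limit given for Nr1i3 may hold for the levels of both Alas1 and Por, as each has 5 protein-coding transcripts in GENCODE vM1. Of 16 tested genes of electron supply and haem synthesis 10 lay above 0, and 0 had an unadjusted p under 0.05.

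**Figure D3:**
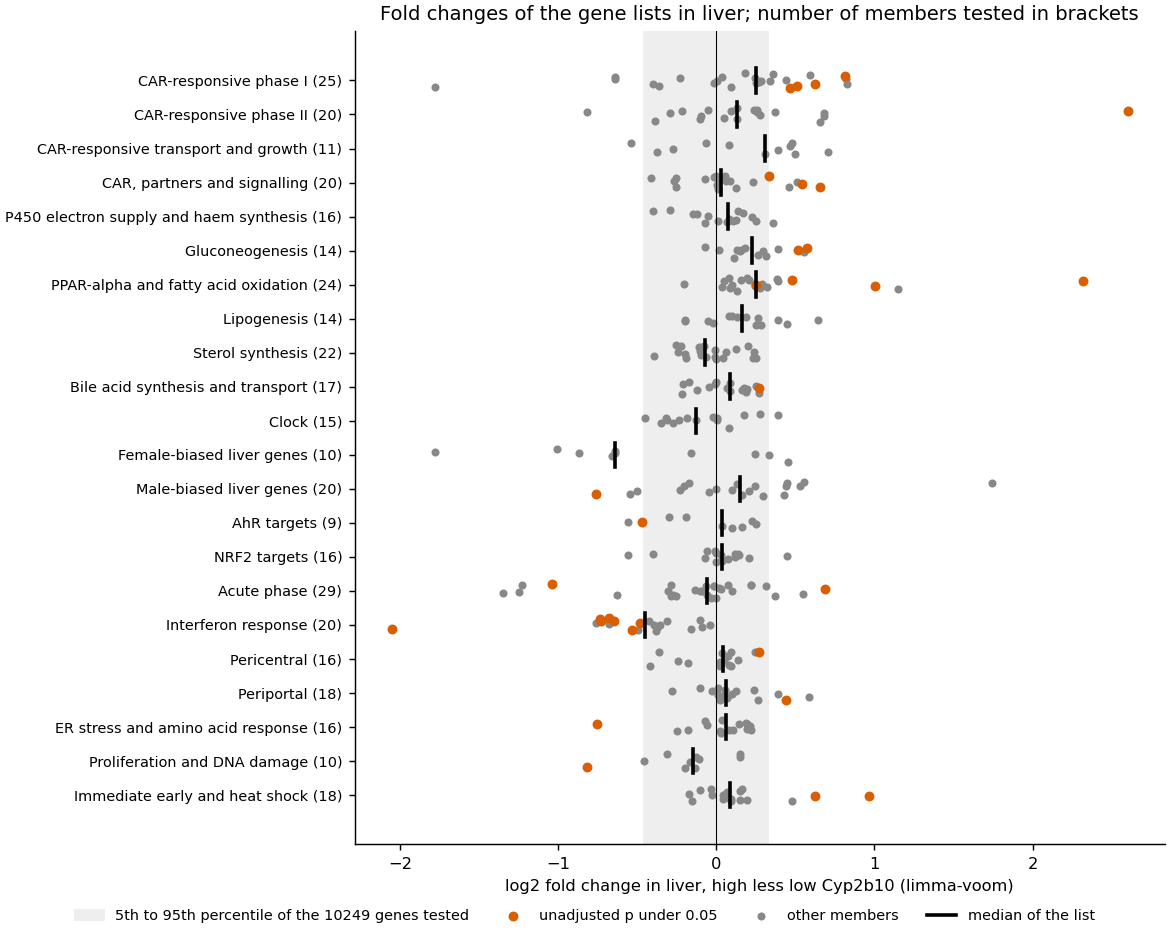
Points are the log2 fold changes of list members in liver, high less low Cyp2b10, with medians as bars and the 5th to 95th percentile of all 10249 genes shaded. Members with an unadjusted p under 0.05 are orange. The interferon-response genes lie wholly below 0, and 23 of 24 PPAR-alpha genes lie above it.

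Most genes of fatty acid oxidation and of gluconeogenesis had values above 0, as did 10 of 14 tested genes of lipogenesis (median 0.16). Of 24 tested genes of fatty acid oxidation and PPAR-alpha, the receptor that senses fatty acids, 23 lay above 0 with a median of 0.25. An unadjusted p under 0.05 was reached by 4, all higher in the high livers, beside 2.54% of all genes in that direction. With the share of Rn45s as a covariate, 20 lay above 0 and 0 had an unadjusted p under 0.05. Cyp4a14, a fatty acid hydroxylase, was at 1.98 to 2573 CPM (median 30.9) against 1.19 to 415 CPM (median 10.99), a log2 fold change of 2.32 (SE 1.05, q = 0.861), with its maximum in CC015. Acot1, an acyl-CoA thioesterase, was at 2.09 to 54.6 CPM against 0.910 to 9.73 CPM (1.01, SE 0.47, q = 0.861; 0.058 by DESeq2), and 9 high livers lay above every low liver. Acaa1b, a peroxisomal thiolase, had 0.48 (SE 0.18), and the carnitine carrier Slc25a20 had 0.25 (SE 0.12). Of 14 tested genes of gluconeogenesis 13 lay above 0 (median 0.22), among them Tat, which degrades tyrosine (0.52, SE 0.23), and G6pc, which releases glucose (0.57, SE 0.27), both with an unadjusted p under 0.05.

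Over all P450 genes outside Cyp2b10, 64 of 104 were tested and 41 lay above 0 (median 0.08). Those higher in the high livers at an unadjusted p under 0.05 were Cyp2c29, Cyp2c54, Cyp4a14, Cyp27a1, a bile acid enzyme (log2 fold change 0.27, SE 0.09), and Cyp26a1, which degrades retinoic acid (1.20, SE 0.41). Cyp2u1 was the single one lower, at 8.43 to 67.0 CPM against 15.8 to 105 CPM (-0.76, SE 0.29). Without the filter on low counts the median of the P450 genes was -0.03.

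In the lists for lipogenesis, sterol synthesis, bile acids, the clock, sex-biased genes, the AhR and NRF2 pathways, the acute phase, the pericentral and periportal zones, ER stress, proliferation and immediate early genes, between 0 and 2 members a list had an unadjusted p under 0.05. Their medians lay between -0.15 and 0.16 except that of the female-biased genes, at -0.64 over 10 tested members, which was 0.22 between the 12 highest and the 12 lowest livers. Pericentral genes, the zone where CAR targets are known to be expressed, had 12 of 16 above 0 with a median of 0.04, and periportal genes 15 of 18 with 0.06. Within 5 Mb of Cyp2b10 on chromosome 7, 109 genes were tested, 56 lay above 0 (median 0.01), and 2 were higher and 5 lower at an unadjusted p under 0.05. On the rest of the chromosome 290 of 576 lay above 0, with 12 higher and 16 lower.

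Interferon-response genes, which cells express on viral or cytokine signals, also lay below 0. Of 20 tested, 0 lay above 0, the median was -0.45, and 7 were lower in the high livers at an unadjusted p under 0.05, beside 3.27% of all genes. Igtp, an interferon-induced GTPase, was at 18.5 to 81.3 CPM (median 38.8) in the high and at 12.5 to 688 CPM (median 48.6) in the low livers, a log2 fold change of -0.73 (SE 0.34), -1.36 by edgeR and -0.51 by DESeq2. Its maximum was in CC016, and the ranges otherwise overlapped. Iigp1, of the same GTPase family, had -2.05 (SE 0.68, q = 0.861), -1.22 by edgeR and -1.21 by DESeq2, with medians of 3.64 and 4.81 CPM. It was at 0 to 8.21 CPM in the high livers, with CC061, CC046, CC021 and CC002 at 0. In the low livers it was at 0 to 42.8 CPM, with CC036 at 0 and the maximum in CC016. Its log2 fold change was -1.87 without CC016 and thus rests in part on values of 0. Without CC016, a setting chosen after seeing the data, 0 of 20 genes lay above 0, the median was -0.34 and 4 were lower. Between the 12 highest and the 12 lowest livers 5 lay above 0 and 1 was lower. On total counts without TMM the median was -0.20 beside 0.23 for all genes, with 4 above 0.

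Kupffer cell markers also lay below 0, while those of sinusoidal endothelium (5 of 9 above 0, median 0.04) and hepatocytes (7 of 10, median 0.06) did not as a list. Stellate cell markers had 3 of 9 above 0 (median -0.17), with 1 lower at an unadjusted p under 0.05, and 0 of 2 red cell markers lay above 0. All 10 Kupffer cell markers had a log2 fold change below 0, with a median of -0.30 and 0 with an unadjusted p under 0.05. Their summed level was 186 to 720 CPM (median 343) in the high and 272 to 1567 CPM (median 404) in the low livers. The same markers also lay below 0 in lung (0 of 9 above 0, median -0.35) and kidney (0 of 5, median -0.18) of these mice. T and NK cell markers summed to 1.01 to 7.61 CPM (median 2.20) against 1.89 to 73.5 CPM (median 4.23), and neutrophil markers to 0.167 to 2.75 CPM against 0 to 30.3 CPM. Both maxima are those of CC016, and only 1 T and NK cell marker and 0 neutrophil markers passed the filter on low counts. Fewer cells of a type and less RNA per cell cannot be told apart in whole tissue. The part of these cells in the interferon result was not tested.

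Genes of other organs also had negative values. Of 4 lung markers tested all 4 lay below 0 and 3 had an unadjusted p under 0.05, among them Scgb1a1, the club cell secretory protein (-1.26, SE 0.48), and Sftpc, a surfactant protein (-1.14, SE 0.42). The summed lung markers were at 3.56 to 58.5 CPM (median 24.6) in the high and at 6.56 to 180 CPM (median 35.9) in the low livers. Both kidney markers tested, Kap and Slc34a1, lay below 0, and both were among the 22 genes that DESeq2 called lower. The part of RNA from other organs in the differences given above was not tested beyond leaving out libraries. Without CC033, CC035 and CC036, chosen after seeing the data, limma-voom called 0 genes, 39 of 56 CAR-responsive genes lay above 0 with a median of 0.15, and the log2 fold change of Cyp2c29 was 0.76 (q = 0.319). Scgb1a1 (-1.33) and Sftpc (-1.23) kept their negative values in that setting, so it did not remove the difference in these lung genes.

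**Figure D4:**
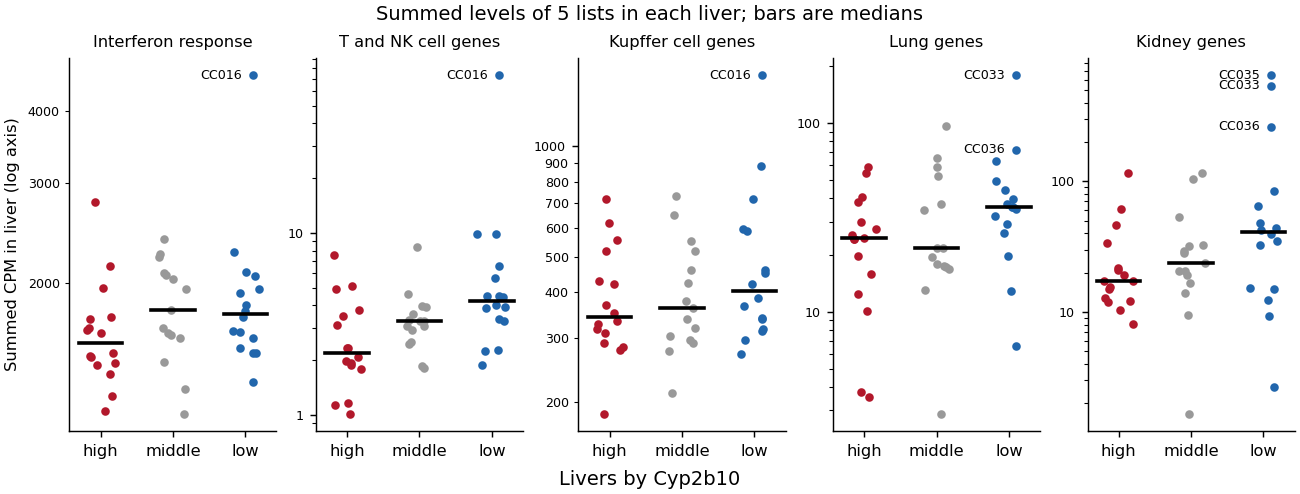
Points are single livers in the high, middle and low groups, the vertical log axis is the summed CPM of a list, and bars are medians. CC016 stands apart in the interferon, T and NK cell and Kupffer cell sums, and CC033, CC035 and CC036 in the lung or kidney sums, and all 4 are low livers.

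The same mice were compared in kidney and lung, which the choice of groups did not use. In kidney 0 of 11892 genes (0%) were called and 911 (7.66%) had an unadjusted p under 0.05, while edgeR called 1, Rab7. In lung 0 of 13401 (0%) were called and 1344 (10%) had an unadjusted p under 0.05, while edgeR called 3, Cbx5, Rpl14-ps1 and Cyp2b19. Both counts at an unadjusted p were larger than the 595 in liver. Of the liver genes with an unadjusted p under 0.05 that were tested in both tissues, 62 of 546 (11.4%) also had one in kidney, which is 8.53% of 727 kidney genes, and 50 of the 62 had the same sign in both. In lung 79 of 561 (14.1%) had one, which is 7.25% of 1090 lung genes, and 51 of the 79 had the same sign. As background, those 727 kidney genes were of 9662 tested in both liver and kidney. The 1090 lung genes were of 9719 tested in both liver and lung. Whether the overlaps exceeded these shares was not tested.

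The CAR-responsive genes had a median of -0.01 in kidney, where 21 of 42 lay above 0, and of 0.09 in lung, where 24 of 38 did. In lung 5 were higher and 1 lower at an unadjusted p under 0.05, beside 682 higher and 662 lower of all 13401 genes. In kidney 3 were higher and 2 lower, beside 477 higher and 434 lower of all 11892 genes. Those higher in lung include Por (0.26, unadjusted p = 0.0046) and Alas1 (0.69, unadjusted p = 0.0020), and none was called. Of 16 CAR partners and signalling genes tested in kidney, Hnf4a, Dnajc7 and Ppp1r16a were higher at an unadjusted p under 0.05. Of 14 tested in lung, Ncoa2 was. Cyp2c29 was at medians of 1.65 and 1.62 CPM in the kidneys and of 1.92 and 1.32 CPM in the lungs of the high and low mice. Cyp2b10 was at 0.614 to 7.65 CPM (median 2.40) in the kidneys of high mice and at 0.242 to 106 CPM (median 2.59) in those of low mice. The maximum was the kidney of CC007, with 826 counts, and the next highest kidney of the 47 mice was CC068 at 9.78 CPM before TMM. In lung it was at 286 to 718 CPM (median 466) in the high and at 191 to 607 CPM (median 351) in the low mice. The genes of fatty acid oxidation and PPAR-alpha had a median of 0.12 in kidney, with 19 of 24 above 0. At an unadjusted p under 0.05, 4 of them were higher in kidney and 0 lower. In lung their median was -0.06, with 6 of 20 above 0. The interferon-response genes had medians of -0.44 in kidney, with 2 of 18 above 0, and -0.36 in lung, with 3 of 22 above 0. Without CC016 these medians were -0.21 and -0.30. The 3 tissues of a mouse are not independent, as they come from the same animal.

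Whether a liver difference was unlike that of the other tissue was tested directly, with the mouse as a replicate block. The difference between the liver and the kidney differences was called for 0 of 11665 genes (0%), with 835 at an unadjusted p under 0.05, and that between liver and lung for 0 of 12943 (0%), with 1381. Without the replicate block the latter called 1 gene, Sms. For Cyp2c29 the liver difference exceeded that in kidney by 0.66 and that in lung by 0.50 on the log2 scale (q = 0.867 and 0.702). The low levels of Cyp2c29 in kidney and lung given above limit what its test can show. No gene was thus shown to have a high-low difference in liver unlike that in kidney or lung.

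**Figure D5:**
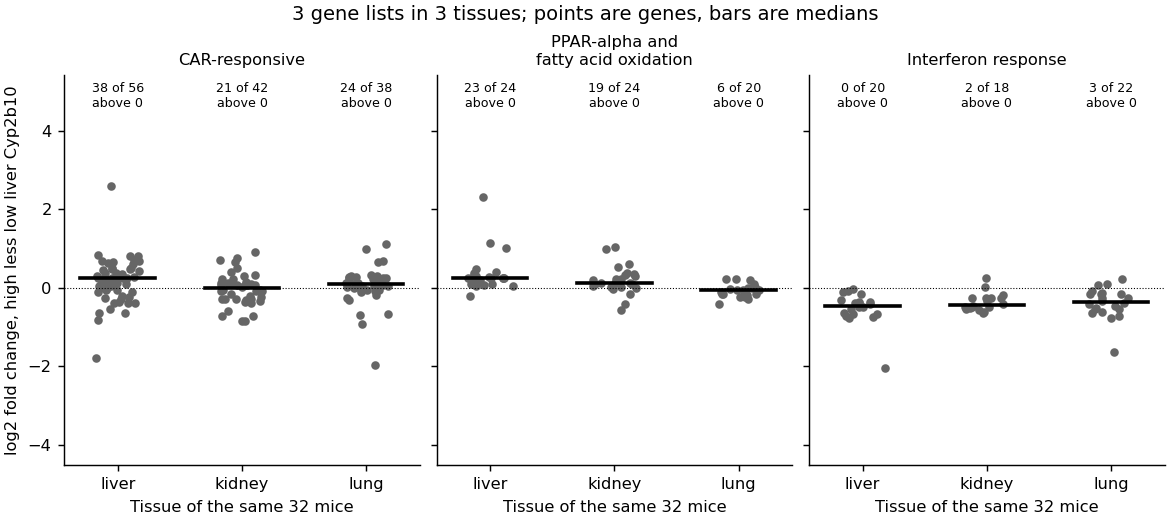
Points are genes and bars are medians of the log2 fold change, high less low liver Cyp2b10, in liver, kidney and lung of the same 32 mice. CAR-responsive genes had medians of 0.24, -0.01 and 0.09, and interferon-response genes -0.45, -0.44 and -0.36. Genes of PPAR-alpha and fatty acid oxidation had 0.25, 0.12 and -0.06.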

How the data were processed

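Total RNA of liver, lung and kidney was sequenced as single-end reads after ribosomal depletion. Per the paper and the submitters' processing notes, the authors aligned reads with STAR 2.5.3a to strain-specific genomes built on mm9 and quantified genes with RSEM. The deposited files hold expected counts, TPM and FPKM for 24423 genes. The expected counts deposited by the authors were rounded and were the basis of all results, the TPM deposited by the authors served 1 alternative, and the deposited FPKM stayed unused. Rn45s was left out of library totals and tests. The study's own models had sequencing batch as a covariate. The batch of each library is not among the labels, so no batch term was fitted here, and batch and group cannot be told apart.

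Counts were scaled by TMM (edgeR 4.0.16). A gene was kept if its CPM exceeded 1 in 30% or more of the libraries compared. Kept genes were tested by limma-voom (R 4.3.3 with limma 3.58.1) at a Benjamini-Hochberg threshold of 0.1. Levels of single genes are TMM-scaled CPM over the 47 libraries of a tissue, and the Cyp2b10 score is on CPM without TMM. Levels of different genes are not per length and were not compared. The interactions used the mouse as a replicate block. Samples of the same strain come from 1 mouse, and their deviations from the group means had a median r of 0.242 across genes for liver and kidney and 0.206 for liver and lung (n = 32 mice each). Technical measures were compared by two-sided permutation tests with 100000 resamples (scipy 1.17.1). DESeq2 1.42.0 and edgeR's quasi-likelihood test were alternatives, and the fits were tested on simulated data. Genes to be named were to be the CAR regulators, the Cyp2b paralogs, marker genes, the called members of each list (up to 3 a direction) and the 10 called genes with the largest change in each direction with at least 10 CPM. The groups and gene lists were chosen with earlier results of these data known. Motifs and transcript windows were read from NCBIM37 and GENCODE vM1, in which 20422 of the 24423 genes had a single record. Each group is 1 library per strain, so p-values measure the spread between libraries, in which strain, mouse and library cannot be told apart. Intervals and count limits cover counting error only. The second gene called along the score over 47 livers is not reported here.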

Additional observations from a re-analysis of the deposited data

How the results depend on the processing

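The liver count of 0 called genes by limma-voom became 4 with edgeR's quasi-likelihood test, 32 with DESeq2, 2 on total counts without TMM, 1 with sample quality weights, 7 between the 23 highest and 23 lowest livers, 2 for the slope over 47 livers and 1 without CC032 and CC042, of which only CC032 was in the comparison. It was 0 with RLE size factors, without the filter on low counts, on log2(TPM + 1), with Rn45s kept in the totals, with depth as a covariate, between 12 and 12 livers, without libraries under 5000000 counts, and at the 2 stricter thresholds, and also in the 4 settings chosen after seeing the data. These were leaving out libraries under 3000000 counts besides Rn45s, the share of Rn45s as a covariate, leaving out CC016, and leaving out CC033, CC035 and CC036. The cause of the differences was not tested. Cyp2c29 was among the calls of all but 1 of the settings that made calls, that of the 23 highest and 23 lowest livers. The 7 calls of that setting were Sec14l3, Mgp, Cxcl15, Cbr2, Cds1, S1pr5 and Marcksl1-ps4. Cbr2 is a listed lung marker, and the others were on no marker list. The kidney count of 0 became 1 with edgeR, and the lung count of 0 became 3 with edgeR and 1 on total counts without TMM. In the paired analysis, with the mouse as replicate block, liver less lung called 0 genes, and without the block 1, while liver less kidney called 0 with and without the block. Of 32 genes followed under all settings, 3 values changed sign, none of them called: Cyp3a11 to -0.013 (23 against 23) and, on log2(TPM + 1), Rxra to 0.017 and Alas1 to 0.17. The differences in total counts with Rn45s, genes detected and Rn45s share kept their direction and side of the threshold between 12 and 12 livers. The low group's Cyp2b10 counts of 0 to 35 limit how well its livers are ranked among themselves, and 16 strains a group limit the changes that could be called.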
